A study of Mus musculus with 5 samples.

Results

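The first step of a ribosome run-off series in mouse brain slices, from 0 to 5 min of homoharringtonine, was read gene by gene against the length of the coding sequence (CDS). For each of the 10329 genes of the deposited count table, the footprint signal at 5 min was divided by that at 0 min and set against the ratio of mRNAs of the same CDS length. Of these genes, 7632 had at least 100 counts in both libraries together and were compared with length, and 2697 had fewer. The comparison rests on 1 library a side, which are 2 of the 5 libraries at 0, 5, 10, 30 and 60 min. No p-value is therefore given, and every interval covers the counting error of single libraries only.

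Footprints are the mRNA fragments that ribosomes protect from RNase, so a footprint count reports how many ribosomes sit on an mRNA. All libraries came from wild type male C57BL/6N mice at postnatal day 28 to 35, with no other genotype among them. Hippocampal-cortical slices of 400 µm recovered for 3 to 4 h before 20 µM homoharringtonine was applied, and 10 slices from 2 to 3 mice made up each pool. The vehicle was 0.05% DMSO, and the labels do not say whether the 0 min slices received it. No vehicle library of 5 min was used here and each time is a different pool, so time on the drug cannot be told apart from vehicle, further time in the bath or the difference between pools.

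Homoharringtonine is a plant alkaloid that binds new ribosomes near the start codon and keeps them from moving on. Ribosomes already past that point continue to the stop codon and leave, so an mRNA with a short CDS empties before one with a long CDS. An mRNA with a higher ratio at 5 min than its length predicts is called slower here, and one with a lower ratio is called faster. These names describe the level at 5 min and not a measured rate. Some short mRNAs were by then near their late level, such as Actb with ratios to 0 min of 0.129 at 5 min and 0.115 at 60 min. For those the value reads how much remained, not how soon footprints left. Such a difference can belong to the movement of ribosomes, to how completely initiation was blocked, to a change in the mRNA itself or to the CDS listed for the gene, and these were not separated by the measurement.

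The 0 min library held 7155147 counts and the 5 min library 2787749, with median counts per gene of 208 and 64. On the deposited scale, which divides each count by a library factor and by the CDS length less 600 nt, the median ratio of 5 to 0 min over all 10329 genes was 0.333, with quartiles of 0.226 and 0.477. That level depends on the scaling: it was 0.826 per library size, 0.986 with TMM factors, 1 with DESeq2 size factors and 0.319 with mitochondrially encoded proteins set equal. A value relative to the length curve does not depend on the scaling, because a library factor moves the curve and every gene alike.

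The share of footprints left after 5 min rose with CDS length. Across the 7632 genes Spearman's rho between ratio and CDS length was 0.780, a description over genes that share 2 libraries. The fitted length curve, a robust local regression on log2 length, passed through a ratio of 0.195 at 800 nt, 0.216 at 1000 nt and 0.275 at 1500 nt. It was steepest between there and 0.443 at 2500 nt, reached 0.573 at 4000 nt and flattened to 0.702 at 10000 nt. Ratios above 1 were found for 31 of all genes, 11 of them among those with the minimum count.

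**Figure D1:**
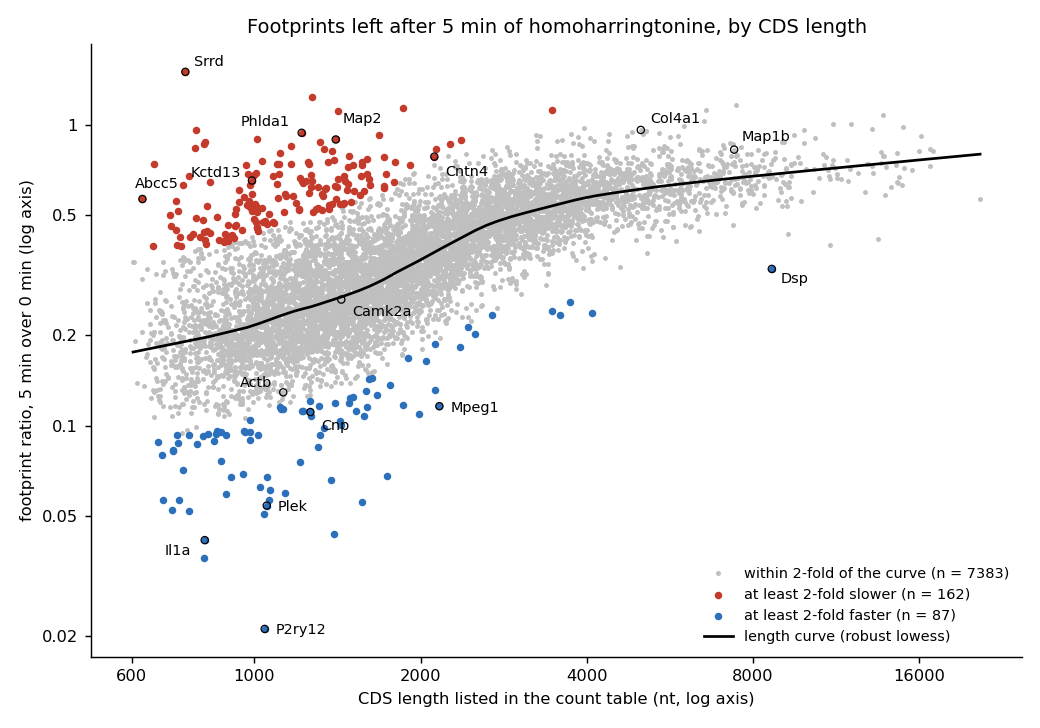
Footprint ratio of 5 to 0 min on the deposited scale (log axis) against CDS length in nt (log axis) for the 7632 genes with at least 100 counts. The black line is the length curve, red points are the 162 genes at least 2-fold above it, blue points the 87 at least 2-fold below it, and circled genes are named in the text.

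The length-adjusted log2 ratio, the log2 of a gene's ratio over the curve, had a standard deviation (SD) of 0.44 across genes against 0.68 before the adjustment. Its quartiles were -0.24 and 0.25, so most mRNAs lay within a small distance of the curve. The spread was widest among short mRNAs: the SD was 0.60 under 1000 nt, 0.43 from 1500 to under 2000 nt and 0.24 at 6000 nt or more. Counting error alone gave an SD of 0.26, 0.20 and 0.12 in these classes, so less than the full spread in each. Between 60 and 30 min, a pair of libraries that shares neither side of the comparison, the SD beyond counting error in the classes was 0.10 to 0.22. For the same genes between 5 and 0 min it was 0.20 to 0.53. The disagreement among mRNAs of one length was therefore larger in the first 5 min than in a late interval in these libraries.

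At least 2-fold slower than the curve were 162 genes, which is 2.12% of those compared, and at least 2-fold faster were 87, or 1.14%. The counting interval lay wholly on the same side of the curve for all 162 and all 87. That interval comes from the same counts as the call. The 2-fold limit and the count minimum together largely fix this outcome, so it is no separate support. Slower mRNAs were mostly short, with 59 of them under 1000 nt (6.08% of that class) and 78 from 1000 to under 1500 nt (4.00%). None of the 484 genes from 4000 to under 6000 nt and none of the 287 longer ones was 2-fold slower. The curve stood at 0.602 and 0.667 at the median lengths of these classes. A 2-fold slower call there would take a ratio above 1, which only 11 of the 7632 genes had. The limit thus left little room for slower calls among long mRNAs. In each of these 2 classes 1 gene was 2-fold faster, and the SD was 0.26 and 0.24. Just inside and just outside the 2-fold limit lay Ogn at 1.00339 and Sstr4 at 0.999974 for slower, and Psat1 at -1.004 and C1qa at -0.998 for faster. Genes past the limit had fewer counts than the rest, with medians at 0 min of 133 for slower and 154 for faster against 349 over all 7632.

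The slowest mRNA by its counting interval was that of Srrd (NM_027323; chr5:112337391-112343040, mm10), with a CDS of 750 nt. It had 63 counts at 0 min and 91 at 5 min in spite of the shallower second library, then 94, 49 and 51 at 10, 30 and 60 min. Its length-adjusted log2 ratio was 2.97 (95% counting interval 2.495 to 3.46), which is 7.86 times the ratio of mRNAs of its length. Its counts were higher at 5 and 10 min than at 0 min and lower at the last 2 times. The length that its TPM implies, a measure described further on, was 1.59 times the listed one, and its value on that length was 2.90.

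Phlda1, which encodes a pleckstrin homology-like domain protein (NM_009344; chr10:111506286-111508649), was measured at more counts. It had 588 counts at 0 min, 533 at 5 min and 562, 495 and 458 after that. Its length-adjusted log2 ratio at 5 min was 1.95 (1.77 to 2.12), and on the deposited scale it still held 0.800 of its starting signal at 60 min. Its footprint signal on that scale therefore fell little over the series, whereas the median gene with the minimum count held 0.348 at 5 min and 0.179 at 60 min. Whether the same ribosomes stayed or new ones replaced them was not tested.

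Prg4, the secreted lubricating proteoglycan lubricin, had 119 counts at 0 min and 142 at 5 min, then 63, 66 and 61. Its length-adjusted value was 2.31 (1.95 to 2.68). Irak1bp1, which encodes a binding partner of the interleukin-1 receptor kinase, had 145, 117, 149, 118 and 76 counts in time order and a value of 2.11 (1.75 to 2.475). Rtn2, a reticulon that shapes the endoplasmic reticulum, had 120, 128, 96, 72 and 54 counts and a value of 2.06 (1.69 to 2.43). Prr7, a proline-rich membrane protein of synapses, had 82, 68, 64, 53 and 59 counts and a value of 2.13 (1.65 to 2.61). Among the other slowest mRNAs, Ccdc127 stood at 2.31, Ctdsp2, a phosphatase of the RNA polymerase II tail, at 2.15, Atp6ap1l at 2.05 and Rab11b, a GTPase of recycling endosomes, at 2.03, on 66 to 140 counts at 0 min.

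The most abundant slower mRNA was that of Map2, the dendritic microtubule-associated protein (NM_008632; chr1:66175202-66442583). Its counts in time order were 33774, 29082, 19976, 10404 and 8312. Its length-adjusted log2 ratio was 1.76 (1.73 to 1.78) against the curve at its listed CDS of 1404 nt. Its course differed from that of Phlda1: the deposited ratio was 0.892 at 5 min but 0.349 at 30 min and 0.253 at 60 min, nearer to the median gene.

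Slower mRNAs thus followed different courses after 5 min. Over all 162, the median deposited ratio was 0.592, 0.616, 0.452 and 0.378 at the successive times after 0 min. Over all genes with the minimum count, it was 0.348, 0.269, 0.222 and 0.179. These ratios share the 0 min library with the choice of genes and are given as levels only. From 10 to 30 min, in libraries that the choice did not use, 12 of the 107 slower genes with at least 100 counts in that pair lay above its length curve, with a median of -0.38. Over all genes with that count, 50.3% lay above it. From 30 to 60 min, 47 of 93 slower genes lay above the curve, with a median of 0.02, against 50.4% of all. The count minimum in the later pairs favours genes that still had footprints at the earlier time of each pair, so these are descriptions of the genes that passed. Usp27x, a ubiquitin-specific protease chosen after its values were seen, is an example of a delayed course: 110 counts at 0 min and 93 at 5 min were followed by 18, 6 and 5.

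**Figure D2:**
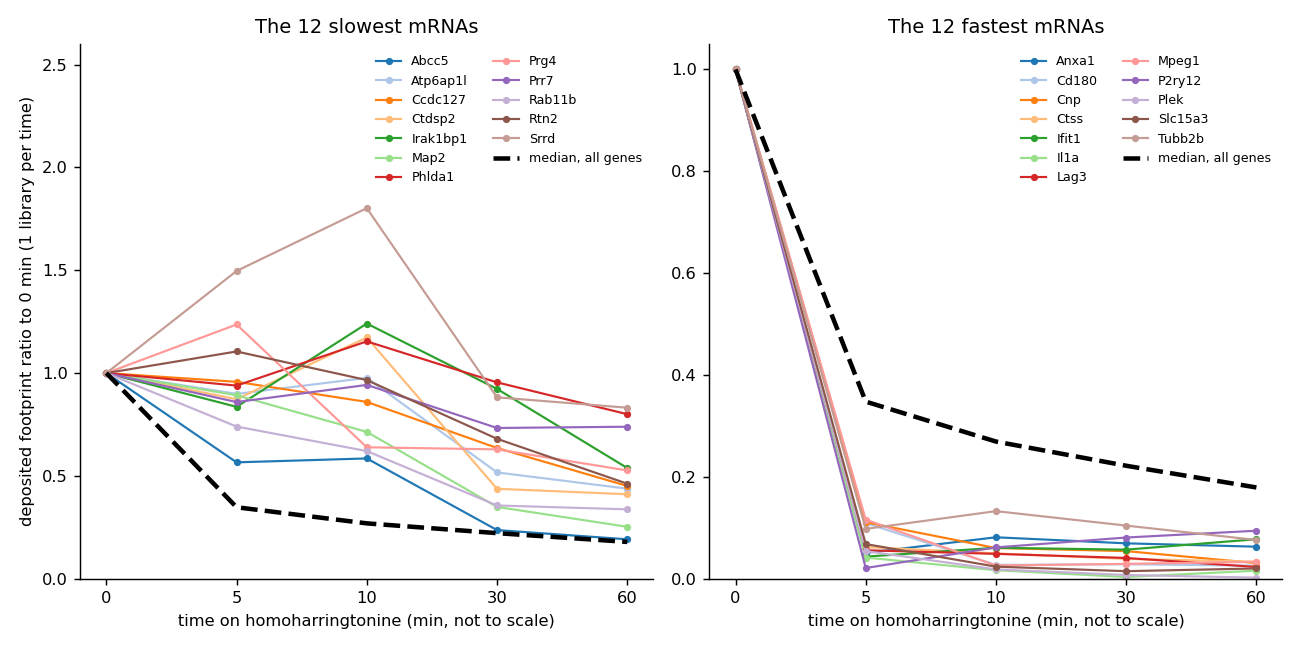
Deposited footprint ratio to 0 min at each time on homoharringtonine (1 library per time; times are not to scale and the vertical scales of the panels differ) for the 12 slowest mRNAs (left) and the 12 fastest (right) by their counting interval at 5 min. The dashed line is the median of genes with the minimum count, 0.348 at 5 min and 0.179 at 60 min; Phlda1 ended at 0.800 and Map2 at 0.253.

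Part of the slower group went with a mismatch in the length listed for the gene. For 5338 genes with a TPM of at least 20 at 0 min, the count divided by the TPM of the second deposited table gave the counted length that the TPM implies, which was set against the listed length less 600 nt. It was at least 1.5 times the listed one for 1.89% of these genes, for 16 of 109 slower genes (14.7%) and for 0 of 60 faster genes. For Map2 it was 2.90 times, as if a CDS of 2932 nt had been counted in place of 1404 nt. For Wdr33, a subunit of the mRNA 3' end cleavage machinery, it was 2.96 times, for Fbrs 3.02, for Phc2, a Polycomb protein, 2.09, and for Gria4, an AMPA receptor subunit, 1.80. For the ATP-driven exporter Abcc5, listed at 627 nt and counted 776 times at 0 min and 424 times at 5 min, it was 44.5 times. That multiple is unstable, since only 27 nt of the listed CDS remain after the 600 nt are taken off. These genes other than Map2 and Abcc5 were chosen after their values were seen. A further 53 slower genes, Prg4 and Rtn2 among them, had a TPM under 20 at 0 min. Their listed lengths could not be checked in this way.

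Other slower mRNAs had an implied length close to the listed one: 0.972 times for Phlda1, 0.942 for Kctd13, an adaptor of a cullin ubiquitin ligase, and 0.989 for Ccdc47, a membrane protein of the endoplasmic reticulum. Kctd13 had 658 counts at 0 min, 414 at 5 min, then 470, 398 and 392, and a length-adjusted log2 ratio of 1.604 (1.42 to 1.78). When the curve was refitted on the implied length, 130 genes were slower, 93 of them among the 109 that were slower by the listed length, and Map2, Abcc5, Wdr33, Fbrs, Gria4 and Cntn4 were not among them. On that curve 58 genes were faster, 56 of them among the 60 by the listed length. The 16 slower genes with a longer implied length had a median deposited ratio of 0.267 at 60 min, and the 93 others with a TPM of at least 20 had 0.380. Having at least 2 RefSeq protein-coding transcripts was no more frequent among slower genes, at 49.7%, than among all genes compared, at 51.6%.

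**Figure D3:**
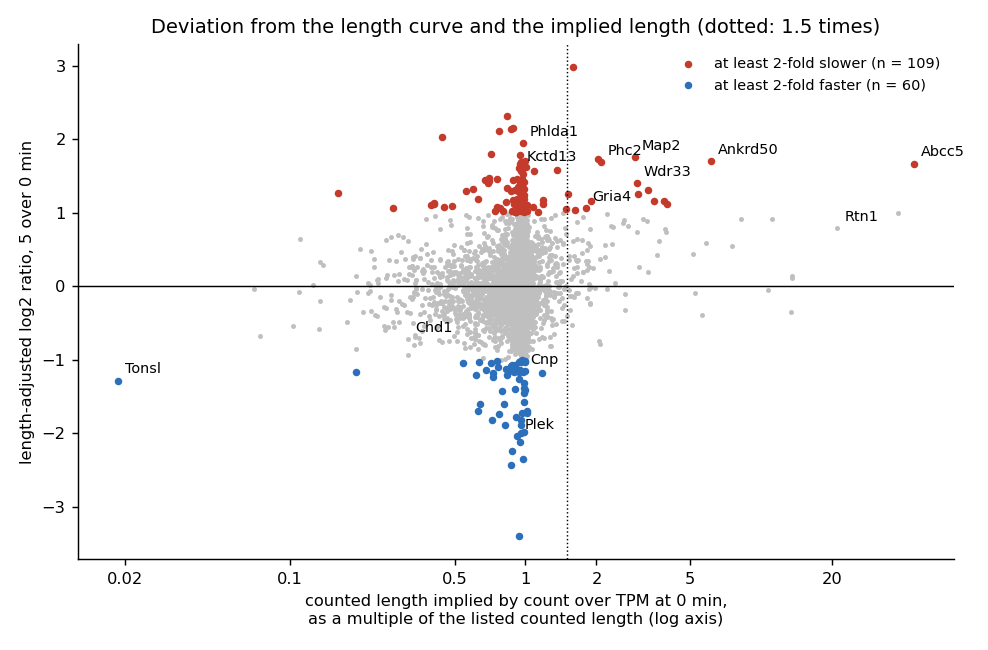
Length-adjusted log2 ratio of 5 to 0 min against the counted length implied by count over TPM at 0 min, as a multiple of the listed counted length (log axis), for the 5338 genes with a TPM of at least 20. Of the red slower genes, 16 of 109 lie right of the dotted line at 1.5 times, and 0 of the 60 blue faster genes do.

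The faster mRNAs were led by genes of immune cells. Il1a, the cytokine interleukin-1 alpha (NM_010554; chr2:129299609-129310186), had 646 counts at 0 min, 26 at 5 min and 9, 2 and 10 after that. Its length-adjusted log2 ratio was -2.23 (-2.86 to -1.67), so it held 4.71 times less than mRNAs of its length. Plek, which encodes pleckstrin, a protein kinase C substrate of blood and immune cells (NM_019549; chr11:16971206-17008718), had 458, 24, 7, 3 and 1 counts and a value of -2.04 (-2.70 to -1.45). Lag3, an inhibitory immune receptor, had 222, 12, 9, 8 and 5 counts and a value of -2.34 (-3.31 to -1.51). Each of these genes had lost most of its 0 min counts by 5 min. From 5 to 10 min the deposited ratio fell again for Il1a, from 0.042 to 0.017, and for Plek, from 0.054 to 0.018. For Lag3 it was 0.056 and 0.049, a small step on 12 and 9 counts.

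The other fastest mRNAs had similar courses. Ctss, the lysosomal protease cathepsin S, had 581, 35, 24, 20 and 19 counts and a value of -1.81 (-2.35 to -1.32). Mpeg1, the pore-forming protein perforin-2, had 464, 52, 10, 12 and 15 counts and a value of -1.73 (-2.17 to -1.31). Cd180, a relative of the Toll-like receptors, had 398, 42, 9, 10 and 10 counts and a value of -1.69 (-2.19 to -1.23). Anxa1, the phospholipid-binding protein annexin A1, stood at -2.12, Slc15a3, a lysosomal peptide transporter, at -2.18 and the interferon-induced Ifit1 at -2.59, on 119 to 163 counts at 0 min. Mpeg1 and Cd180, with CDS of 2163 and 1986 nt, lost footprints again between 5 and 10 min, as did the shorter Il1a, Plek and Slc15a3, the last from 10 to 3 counts. Ctss fell less over that step.

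The list of microglia markers was the lowest of all lists. Microglia are the resident macrophages of the brain. Of its 28 genes, 23 were in the count table and 17 had the minimum count, and 0 of the 17 lay above the curve, against 49.8% of all genes compared. Their median was -1.15, or 2.22 times below the curve. The count minimum is on both libraries together, so a marker could pass it through its 0 min counts alone. This and the other lists were also made with earlier results of these data known. Shares of list members are therefore descriptions only. The counting interval lay wholly below the curve for 15 of the 17, against 19.1% of all genes, and 10 were at least 2-fold faster, against 1.14%. Among them were P2ry12, Plek, Cx3cr1, C1qb, Ctss, Fcrls, Inpp5d, Ptprc and Laptm5. P2ry12, the purinergic receptor by which microglia sense nucleotides (NM_027571; chr3:59216271-59262985), had 98 counts at 0 min and 2 at 5 min, then 5, 7 and 9. Its value of -3.39 has an interval of -6.46 to -1.5, since it rests on 2 counts. The fractalkine receptor Cx3cr1 had 165 and 9 counts at 0 and 5 min, and the complement subunit C1qb 199 and 10. Nearest to the curve was the integrin subunit Itgam, with 377 counts at 0 min, 145 at 5 min, 37 at 10 min and a value of -0.43 (-0.72 to -0.15). The receptor of colony-stimulating factor, Csf1r, 2934 nt long, had 1677, 491, 120, 73 and 64 counts and a value of -0.71 (-0.86 to -0.56).

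The 23 microglia markers in the table summed to 7717 counts at 0 min, 1294 at 5 min and 483, 323 and 328 at 10, 30 and 60 min. In bulk tissue, fewer cells of a type and fewer footprints per cell cannot be told apart, and whether the 5 min pool held fewer microglia was not tested. The 2 longest microglia mRNAs with a 2-fold deviation, Inpp5d at 3576 nt and Ptprc at 3465 nt, held deposited ratios of 0.233 and 0.239, with values of -1.23 and -1.16. The listed length of Ptprc is in doubt: its implied length was 0.192 times the listed one, and it was not 2-fold faster on the curve fitted on implied length.

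The list of inflammation and innate immune genes was split. Of 17 with the minimum count, 2 lay above the curve (all genes: 49.8%), the median was -0.44, and 7 were at least 2-fold faster: Il1a, Il1b, Slfn2, Tnf, C5ar1, C3ar1 and Tlr2. The cytokine Tnf had 118 counts at 0 min and 6 at 5 min, and the complement receptor C3ar1 had 350 and 34. By contrast, the 2 members above the curve were Ptgs2, the inducible cyclooxygenase, with 909 and 411 counts and a value of 0.53 (0.36 to 0.70), and Icam1, an adhesion molecule of endothelium, with 568 and 224 counts and a value of 0.49 (0.27 to 0.72). Nfkbia, the inhibitor of NF-kappaB, lay on the curve with 867 and 175 counts and a value of -0.0019 (-0.24 to 0.23). Together the microglia and inflammation lists held 17 of the 87 faster genes (19.5%) and 34 of the 7632 genes compared (0.445%).

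At 5 min, no list of markers of another cell type had a median as low as that of microglia markers. Oligodendrocyte and myelin markers had a median of -0.32 with 9 of 24 above the curve and 2 at least 2-fold faster (all genes: 1.14%). The oligodendrocyte and astrocyte lists lay lower at later times, each read against its own length curve. Medians at 10, 30 and 60 min were -0.76, -1.06 and -1.30 for oligodendrocyte and -0.23, -0.60 and -0.68 for astrocyte markers. For microglia markers they were -1.84, -2.23 and -2.19. Cnp, an enzyme of myelin (NM_009923; chr11:100574909-100591875), had 9041, 969, 452, 433 and 271 counts in time order and a value of -1.16 (-1.26 to -1.06), the best counted of the 12 fastest mRNAs. Ermn, a cytoskeletal protein of myelinating cells, stood at -1.16 on 337 and 29 counts. The myelin membrane protein Mag lay above the curve instead, at 0.40 with 6254 and 2491 counts. Bcas1, a marker of newly formed oligodendrocytes, was highest at 0.96 (0.86 to 1.07), with 1837 counts at 0 min, 1172 at 5 min and still 989 at 60 min. On the listed lengths, the markers of this list therefore spanned more than 2 log2 units. The implied length of Bcas1 was 0.561 times the listed one. Its value ran from 0.39 to 1.33 over the alternative settings described at the end, so the width of that span is uncertain.

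Astrocyte markers had a median of -0.13 (9 of 22 above the curve), from the transcription factor Sox9 at -0.95 to the secreted protein Sparcl1 at 0.59. Sparcl1 turned to -0.23 when TPM + 1 replaced the counts. Endothelial and mural markers had a median of 0.34 with 16 of 17 above the curve, and neuron markers a median of -0.03, which turned to 0.09 with a fitted step, with 7 of 16 above it, from Prox1 at -0.82 to the vesicle calcium sensor Syt1 at 0.61. Summed counts at 0 and 5 min were 142680 and 47685 for the astrocyte markers in the table, 44850 and 13109 for oligodendrocyte markers, 9991 and 3483 for endothelial markers and 64944 and 19396 for neuron markers. Of 19 blood, choroid plexus and ependymal markers, 2 were in the table and 1 had the minimum count, Kl at 0.53.

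**Figure D4:**
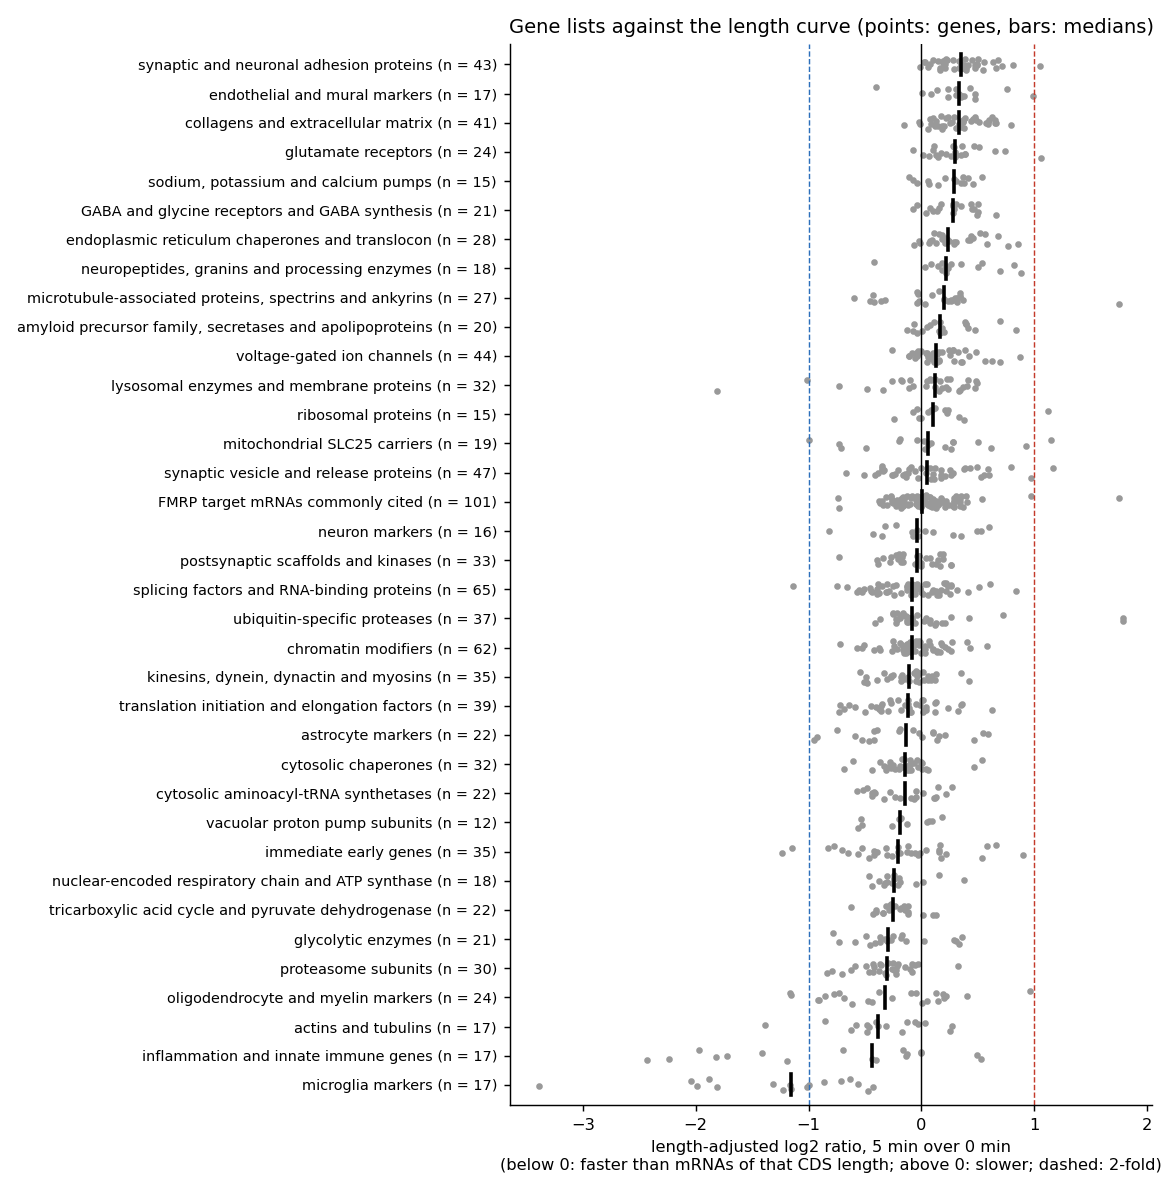
Length-adjusted log2 ratio of 5 to 0 min for members of each gene list with the minimum count (grey points) and the list median (black bars), for lists with at least 5 such members, ordered by median. Microglia markers lie lowest at -1.15 with every point below 0, and synaptic and neuronal adhesion proteins highest at 0.35; dashed lines mark 2-fold.

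Most lists of membrane and secreted proteins lay above the curve. Proteins of these kinds are made on ribosomes bound to the endoplasmic reticulum. The exceptions included the microglia markers, many of them receptors or secreted proteins. Another was the vacuolar proton pump, a complex with membrane and cytosolic parts, with 4 of 12 subunits above and a median of -0.18. The inflammation list and the oligodendrocyte and myelin list, which hold such proteins among others, also lay below the curve. They had 2 of 17 and 9 of 24 above it, with medians of -0.44 and -0.32. Of 43 synaptic and neuronal adhesion proteins, 42 lay above the curve (all genes: 49.8%), with a median of 0.35, and for 37 the counting interval lay wholly above it (all genes: 22.3%). Ncam1, the neural cell adhesion molecule, had 13782 counts at 0 min and 8239 at 5 min and a value of 0.68 (0.64 to 0.72), and L1cam had 5785 and 4844 counts and a value of 0.63 (0.58 to 0.69). Cntn4, an axonal contactin, was highest at 1.06 (0.90 to 1.21) with 797 and 602 counts, and its implied length was 1.49 times the listed one. The sidekick protein Sdk2, of 6531 nt, had 550 and 544 counts and a value of 0.66 (0.49 to 0.83). The neurexins Nrxn2 and Nrxn3 were at 0.03 and 0.20. The only member below the curve was Dscaml1, at -0.01 (-0.18 to 0.16), which became 0.60 with TPM + 1 in place of counts.

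Collagens and extracellular matrix proteins had 38 of 41 above the curve and a median of 0.34. Col4a1 and Col4a2, the paired chains of basement membrane collagen, held deposited ratios of 0.960 and 0.951 at 5 min, with 841 and 779 counts for Col4a1 and 696 and 639 for Col4a2, and values of 0.65 and 0.63. Their counts at 30 min were 276 and 210, so the footprints left later. The fibrillar collagens Col1a1 and Col1a2 were at 0.58 and 0.60, whereas fibronectin (Fn1) lay on the curve at -0.01 and the laminin chain Lama1 at -0.15 (-0.62 to 0.30). The link protein Hapln4 was highest at 0.80 (0.59 to 1.00).

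Glutamate receptors, the subunits of the excitatory receptors of the brain, had 23 of 24 above the curve and a median of 0.30. The AMPA receptor subunits Gria1, Gria2 and Gria3 were at 0.15, 0.47 and 0.28, with 5869 and 2985, 9475 and 5172, and 3434 and 1883 counts at 0 and 5 min. The remaining AMPA receptor subunit, Gria4, was at 1.06 with a longer implied length. The NMDA receptor subunits Grin1, Grin2a and Grin2b were at 0.36, 0.11 and 0.13, on 2660 to 12095 counts at 0 min. The metabotropic receptors ran from Grm3 at 0.02 to Grm8 at 0.75. Only the kainate receptor subunit Grik5 lay below the curve, at -0.08 (-0.31 to 0.15). GABA and glycine receptors and the enzymes of GABA synthesis had 19 of 21 above the curve and a median of 0.29, from Glra2 at -0.07 (-0.62 to 0.45) to the GABA transporter Slc6a11 at 0.66.

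Voltage-gated ion channels stood lower, with 34 of 44 above the curve and a median of 0.13, and the pumps of sodium, potassium and calcium had 12 of 15 above it and a median of 0.29. Chaperones and translocon subunits of the endoplasmic reticulum had 25 of 28 above and a median of 0.24, with Canx, the membrane-bound lectin chaperone calnexin, at 0.41 on 8020 and 3264 counts. The soluble chaperone Hspa5 (BiP) was lowest of that list at -0.06 (-0.11 to -0.01), and at 0.027 after a further adjustment for the 0 min level. Neuropeptides, granins and their processing enzymes had 17 of 18 above and a median of 0.22, with the enkephalin precursor Penk highest at 0.89 and the pentraxin Nptx2 lowest at -0.42. The amyloid precursor family, secretases and apolipoproteins had 16 of 20 above and a median of 0.17, and lysosomal proteins 21 of 32 and 0.12.

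Families named by gene symbol were chosen after these lists had been read. All 12 membrane or secretory families had a median above the curve, from 0.09 for integrins to 0.41 for the Adam and Adamts metalloproteases. They included solute carriers (129 of 166 above, median 0.19), Tmem proteins (62 of 74, 0.22), protocadherins (53 of 61, 0.30), cadherins (16 of 16, 0.32), Gpr receptors (20 of 25, 0.36), Kcn potassium channels (41 of 52, 0.21) and Golgi glycosyltransferases (34 of 39, 0.40). Together 415 of their 503 genes (82.5%) lay above the curve. Of the 14 cytosolic or nuclear families, 5 had a median above the curve and 9 below it, from -0.30 for proteasome subunits to 0.12 for RNA polymerase subunits. Of their 558 genes, 247 (44.3%) lay above the curve, near the 49.8% of all genes. The families share genes with the lists: without the genes that a list also holds, 348 of 418 membrane genes (83.3%) and 211 of 435 cytosolic genes (48.5%) lay above it, with medians of 0.24 and -0.01. The membrane families thus stood above the share of all genes without the listed genes, and the cytosolic families did not stand clearly below it. The solute carriers include mitochondrial SLC25 carriers, which are made on cytosolic ribosomes and taken as a list of their own had 12 of 19 above and a median of 0.06, which turned to -0.052 with a fitted step and -0.0081 with TPM + 1.

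The gap between both kinds of family held in each length class that had at least 5 genes of each. Membrane less cytosolic medians differed by 0.37 under 1000 nt, 0.48 from 1000 to under 1500 nt, 0.17, 0.29 and 0.19 in the next classes and 0.21 from 4000 to under 6000 nt. In deposited ratios, the medians from 1000 to under 1500 nt were 0.317 for membrane families and 0.226 for cytosolic ones, and from 2000 to under 3000 nt they were 0.524 and 0.434. Between 30 and 60 min, the medians over all families were 0.02 for 318 membrane genes, 171 of them above the curve of that pair, and -0.03 for 304 cytosolic genes, 134 of them above it, among those with at least 100 counts in that pair. By class the late gap ran from -0.0026 under 1000 nt to 0.17 from 1000 to under 1500 nt, with 0.16 from 3000 to under 4000 nt, so in some classes it was close to the smaller gaps of the first 5 min. From 10 to 30 min they were -0.10 for 345 membrane genes, 120 of them above the curve of that pair, and 0.01 for 334 cytosolic genes, 172 of them above it.

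**Figure D5:**
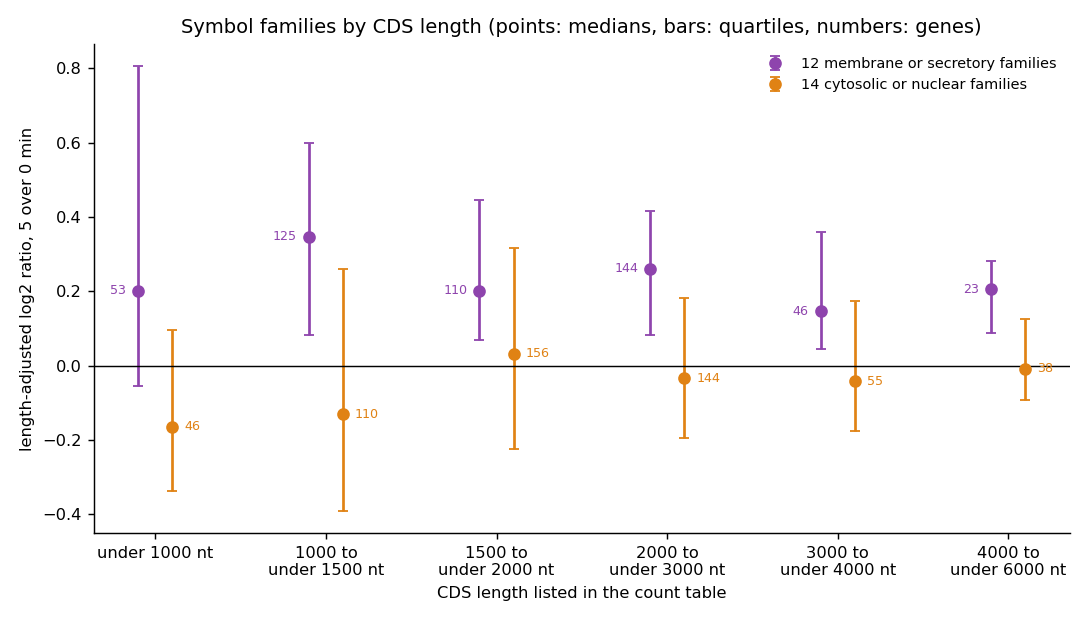
Median (points) and quartiles (bars) of the length-adjusted log2 ratio of 5 to 0 min for the 12 membrane or secretory families and the 14 cytosolic or nuclear families in each CDS length class with at least 5 genes of each, with the number of genes beside each point. The membrane medians lie between 0.15 and 0.35 and the cytosolic ones between -0.16 and 0.03.

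Lists of the proteasome and of energy metabolism, whose proteins are made on free or mitochondrion-associated cytosolic ribosomes, lay mostly below the curve. Of 30 proteasome subunits, 29 lay below it (all genes: 50.2%), Psma7 lay above it at 0.32 (0.01 to 0.63), and the median was -0.31, with Psmd11 lowest at -0.83 on 1129 and 152 counts. Glycolytic enzymes had 5 of 21 above and a median of -0.29, enzymes of the tricarboxylic acid cycle and pyruvate dehydrogenase 3 of 22 and -0.25, and nuclear-encoded subunits of the respiratory chain and ATP synthase 3 of 18 and -0.24. The highest member of the glycolytic list was the glucose transporter Slc2a3, a membrane protein, at 0.36 (0.23 to 0.49). Gapdh was its lowest at -0.78 (-0.90 to -0.66), with 5136 counts at 0 min and 656 at 5 min. No gene of these 4 lists was at least 2-fold off the curve, against 2.12% slower and 1.14% faster of all genes, so few would be called at the background share. The proteasome subunit Psmb10, which the list did not hold and which was named after its values were seen, was 2-fold slower at 1.45 (0.94 to 1.94) on 102 and 53 counts. The implied length of Psmd11 was 0.552 times the listed one.

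Actins and tubulins had 3 of 17 above the curve and a median of -0.38. Actb, the cytoplasmic beta-actin, had 33635, 4191, 3590, 4016 and 3755 counts in time order and a value of -0.85 (-0.90 to -0.81), so its level at 5 min was already that of 60 min. Actg1 had 25258 and 3804 counts and a value of -0.58. The beta-tubulin Tubb2b was lowest at -1.39 (-1.75 to -1.04) on 782 and 74 counts, and its near-identical neighbour Tubb2a was at -0.63 on 2806 and 450. The sources used here do not say how reads shared by such copies were divided, so the values of single actins and tubulins are uncertain. The neuronal beta-tubulin Tubb3 was on the curve at 0.03. The partners of the cytoskeleton differed: microtubule-associated proteins, spectrins and ankyrins had 17 of 27 above and a median of 0.20, while kinesins, dynein, dynactin and myosins had 10 of 35 above and -0.11.

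Map1b, a long microtubule-associated protein of 7395 nt, had 30992, 24699, 23687, 8469 and 7183 counts over the series. Map1b kept a deposited ratio of 0.826 at 5 min against 0.664 on the curve, a value of 0.31 (0.29 to 0.34). Its fall came between 10 and 30 min, later than that of short abundant mRNAs such as Actb. Among other long mRNAs the desmosomal protein Dsp, of 8652 nt, was the fastest of its length class, with 328 and 105 counts, a deposited ratio of 0.332 and a value of -1.04 (-1.37 to -0.72). It had 167 counts at 10 min, more than at 5 min.

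The machinery of translation lay near the curve or a little below it. Initiation and elongation factors had 14 of 39 above and a median of -0.12, and cytosolic aminoacyl-tRNA synthetases 7 of 22 and -0.14. Eef2, the elongation factor that moves the ribosome, was on the curve at 0.02 (-0.03 to 0.08) with 7948 and 3550 counts, while its kinase Eef2k was at -0.73 with 293 and 66 counts. The helicase Eif4a2 was highest at 0.62 (0.52 to 0.73). Ribosomal proteins had 10 of 15 above and a median of 0.11, which turned to -0.065 when a step was fitted in place of the curve. Of the 27 ribosomal proteins listed, 17 were in the count table. Cytosolic chaperones had 6 of 32 above and a median of -0.14. Hspa8, the constitutive heat shock cognate protein, had 40918 and 12636 counts and a value of -0.11 (-0.14 to -0.08), which became 0.013 after a further adjustment for the 0 min level.

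Synaptic proteins other than receptors and adhesion molecules lay on both sides of the curve. Postsynaptic scaffolds and kinases had 11 of 33 above and a median of -0.04. Of their counting intervals, 7 lay wholly above the curve (all genes: 22.3%) and 15 wholly below it (all genes: 19.1%). Synaptic vesicle and release proteins, which include proteins of the vesicle membrane, had 26 of 47 above and a median of 0.05. Of their intervals, 18 lay wholly above (all genes: 22.3%) and 16 wholly below (all genes: 19.1%). The vesicle membrane protein Sypl was highest at 1.17 on 100 and 41 counts, and Syn3, a synapsin on the vesicle surface, was lowest at -0.67. Camk2a, the calcium-dependent kinase of the postsynaptic density, had 24789 and 6276 counts and a value of -0.03 (-0.07 to 0.01), which became 0.19 with a fitted step, and the scaffold Dlgap1 was lowest of the former list at -0.73 (-0.82 to -0.63). FMRP is an RNA-binding protein whose absence causes fragile X syndrome, and of the mRNAs commonly cited as its targets, 52 of 101 lay above the curve with a median of 0.01. That share was close to that of all genes. Splicing factors and RNA-binding proteins had 23 of 65 above and a median of -0.08, ubiquitin-specific proteases 14 of 37 and -0.09. Chromatin modifiers had 22 of 62 above and a median of -0.09, which turned to 0.017 with TPM + 1 in place of counts.

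Immediate early genes, whose mRNAs are induced within minutes of neuronal activity and are short-lived, had 10 of 35 above the curve and a median of -0.20. Fosb was lowest at -1.23 (-1.47 to -1.0), with 1808 counts at 0 min and 162 at 5 min, followed by Zfp36, which promotes mRNA decay, at -1.14 on 380 and 35 counts. Fos was at -0.31 on 3522 and 646 counts and Egr1 at -0.52 on 7042 and 1364. Arc, which acts at synapses, lay above the curve at 0.54 (0.38 to 0.71) on 1180 and 400 counts, and the phosphatase Dusp5 was highest at 0.91 (0.54 to 1.26). Members of this list lay on both sides but more often below. Of the 35 counting intervals, 14 lay wholly below the curve (all genes: 19.1%) and 5 wholly above it (all genes: 22.3%).

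Over all genes compared, the length-adjusted value had only a weak rank relation to the footprint signal at the start. Across the 7632 genes Spearman's rho between the length-adjusted log2 ratio and the 0 min signal per kilobase was -0.06. The 0 min library is the denominator of the one and the whole of the other, so even that value is shared by construction. It does not describe single lists. With a further adjustment for the 0 min level, glycolytic enzymes moved from -0.29 to -0.21 and the tricarboxylic acid cycle list from -0.25 to -0.20. The membrane families moved only from 0.243 to 0.247 and the cytosolic families from -0.053 to -0.045. Among the genes with the highest 0 min signal per kilobase, the reticulons Rtn1 and Rtn3, proteins of the tubular endoplasmic reticulum, were at 0.79 and 0.74 on 16274 and 4838, and 17209 and 5201 counts. Ywhaz, a 14-3-3 adaptor protein, was at -0.42 on 7067 and 965 counts. Rtn1, listed at 627 nt, had an implied length 21.0 times the listed one, Rtn3 2.97 times and Ywhaz 0.787 times, so the signal per kilobase and the length adjustment of the 2 reticulons are uncertain.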

How the data were processed

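Ribosome profiling libraries of slices at 0 and 5 min were compared, and those at 10, 30 and 60 min are given beside them. The build was mm10 and the tools SAMtools 0.0.19, TopHat2 2.0.9, Bowtie2 2.1.0, Trimmomatic 0.32 and cutadapt 1.7.1, per the submitters' processing notes; RSEM appears in the names of deposited data, its settings not given in the sources used here. Expected counts were deposited by the authors as whole numbers and were rounded without change. The deposited signal equals that count per kilobase of CDS less 600 nt and per library factor (1 at 0 min, 0.965 at 5 min; of unstated origin), and the deposited ratio divides the signal by that at 0 min. A second deposited table holds a score, TPM rounded to whole numbers; the deposited score columns of rates were not used. Of 10329 transcripts, 10293 matched the GRCm38.p6 annotation, from which positions were taken.

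Genes with at least 100 counts over both libraries entered a robust lowess (span 0.2, 3 iterations; statsmodels 0.14.6, Python 3.11.15) of the log2 ratio on log2 CDS length; the residual is the length-adjusted value. Intervals are exact 95% conditional binomial intervals of the counts at a fixed curve, with no stated molecular identifiers, so they cover counting error only. The steps were tested on simulated data. TMM factors (edgeR 4.0.16) and DESeq2 1.42.0 size factors served as alternative scalings, without a test. Alternatives were other curves, a prior count, the TPM table, other count minimums and folds. Genes were named by a rule (the 12 slowest and 12 fastest by interval, extremes of each length class and list, the 5 highest at 0 min and 6 known mRNAs); other members of lists were chosen after their values were seen. Members and lists were chosen with earlier results of these data known; symbol families and the implied length were added after the lists had been read. Codon, GC and amino acid content were not analysed here.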

Additional observations from a re-analysis of the deposited data

Results flagged for a closer look

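A signal outside the count table drew attention: proteins encoded in the mitochondrial genome and translated inside mitochondria, which appear only in the second deposited table. Their summed TPM was 4153 at 0 min and 14194 at 5 min, which is 3.42 times as much, and 14549, 16973 and 20423 at 10, 30 and 60 min. Of 13 genes, 9 were listed there and 7 were higher at 5 than at 0 min. One of the 7, mt-Atp6, rose only from 0 to 7. The genes mt-Co2, at 0 both times, and mt-Co3, at 1 and 0, also lay at the floor. mt-Co1, a subunit of cytochrome oxidase, went from 1241 to 4414, and mt-Cytb, of complex III, from 1253 to 4191. TPM are shares of each library, and the count table of cytosolic mRNAs held 7155147 counts at 0 min and 2787749 at 5 min.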

How the results depend on the processing

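No paired analysis was possible because each time has 1 library, which also leaves the spread between pools unmeasured. The count of at least 2-fold slower genes was 157 to 219 under the other curves, the prior count and TPM + 1, but 361 with no minimum count, 41 with at least 400 counts and 613 at 1.5-fold. The count of faster genes was 76 to 98 under other curves and the prior count, but 179 with TPM + 1, 413 with no minimum, 15 with at least 400 counts and 481 at 1.5-fold. With the implied length in place of the listed one, on the 5338 genes that have it, 130 genes were slower in place of 109 and 58 faster in place of 60. The median ratio of 0.333 became 0.826 per library size, 0.986 with TMM, 1 with DESeq2 factors, 0.319 with mitochondrially encoded proteins set equal and 0.348 with at least 100 counts. Spearman's rho of 0.780 became 0.700 with no minimum and 0.717 with TPM + 1. Of 287 recomputed list medians, 281 moved by less than their spread. The exceptions were ribosomal proteins at -0.065, GABA and glycine receptors at 0.48 and FMRP targets at 0.073 with a fitted step, cytosolic chaperones at -0.065 with the 0 min level as a further adjustment, and, with TPM + 1, FMRP targets at 0.094 and chromatin modifiers at 0.017. Small medians of 4 further lists changed sign within that interval: mitochondrial carriers, neuron markers, scaffolds (0.0043 with TPM + 1) and vesicle proteins (-0.0022 with the step). Of 842 values of named genes, 16 in 13 genes had the other sign. Of these, 6 were of genes whose counting interval lay wholly on one side: Cacnb4 to 0.012 with the step, Hspa5 to 0.027 and Hspa8 to 0.013 with the 0 min level, Sparcl1 to -0.23 with TPM + 1, and Chd1 to 0.014 and Tonsl to 0.38 with the implied length. The others were of Begain, Camk2a, Dscaml1, Eef2, Glra2, Pdhx and Psen2, with Pdhx from 0.13 to -0.37 with TPM + 1. The cause of these shifts was not tested, except that a lower minimum admits genes with wider counting error and a smaller fold admits more genes. The medians of all membrane families ranged from 0.23 to 0.26 and those of all cytosolic families from -0.07 to -0.03.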
